A study of Rattus norvegicus with 4 samples.

Results

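The genes described here encode the constitutive proteasome with its assembly factors, activators and inhibitor, 43 genes chosen by symbol from the 18699 genes of the expression table. They comprise the 7 alpha and 7 beta subunits of the 20S core, the 6 ATPases and 12 other subunits of the 19S cap, 8 assembly factors, and the activators Psme3 and Psme4 with the inhibitor Psmf1. The rule goes by gene function. All 43 had enough reads to be tested among 14519 genes.

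RNA came from neonatal rat ventricular myocytes (NRVM), primary heart muscle cells of Sprague Dawley pups between 1 and 3 days of age. There were 2 libraries of cells given 1 µM carfilzomib for 24 h and 2 libraries of cells given vehicle, all of wild-type genotype. Both groups grew in medium with 15% serum, antibiotics, glutamine and 0.1 mM bromodeoxyuridine, which holds back dividing cells other than cardiomyocytes. Nothing in the labels ties the replicates to separate cultures or litters. The p-values therefore measure library-to-library spread alone, and that spread may be technical.

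The proteasome is the protease that degrades ubiquitin-tagged proteins in the cytosol and nucleus. Its 20S core is a stack of rings in which outer alpha rings gate a chamber formed by beta rings, and a few beta subunits carry the cutting sites. The 19S cap binds tagged substrates, removes the ubiquitin and uses a ring of ATPases to unfold and feed them into the core. Carfilzomib binds irreversibly to the catalytic subunit encoded by Psmb5. When proteasome activity falls, the transcription factor NRF1, encoded by Nfe2l1, is known to escape degradation and to raise transcription of proteasome genes, which is called the bounce-back response. Heart muscle relies on the proteasome for the turnover of its contractile proteins.

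Each library held between 18655499 and 18884362 estimated reads, and the median tested gene had 473 to 478 of them. The culture expressed defining cardiomyocyte genes, such as Tnnt2 at 2723 and 2501 CPM (counts scaled to library size and normalised between libraries) with carfilzomib, against 3342 and 3342 CPM with vehicle. It also held RNA of fibroblast markers, most of it from Col1a1. Col1a1 had 11155 and 10590 CPM with carfilzomib, against 19415 and 19926 CPM with vehicle. Marker lists are set beside all genes tested, of which 30.1% were called lower and 30.6% higher (test given below). Of 10 cardiomyocyte markers 9 fell, and their summed level was 10477 to 10969 CPM with carfilzomib, against 33032 to 33039 CPM with vehicle. Myh6, Actc1 and Myh7 made up most of that difference. Myh6 had 714 and 709 CPM with carfilzomib, against 10018 and 9621 CPM with vehicle, and Actc1 had 1129 and 1142 CPM against 8230 and 8716 CPM. Tnni3 had 49.8 and 45.2 CPM with carfilzomib, against 434 and 428 CPM with vehicle, a log2 fold change of -3.18. Ryr2, Actn2 and Ttn had log2 fold changes of -1.29, -1.16 and -0.88. The remaining markers, Tnnt2 (-0.36), Mybpc3 and Nppa, changed less. Mybpc3 had 599 and 614 CPM with carfilzomib, against 788 and 797 CPM with vehicle. Nppa, which did not pass, had 4385 and 4104 CPM against 4119 and 4363 CPM. Of 8 fibroblast markers 8 fell, with sums of 14787 to 15511 CPM against 27685 to 28241 CPM. Col1a1 made up most of these sums. Log2 fold changes in this list ran from -1.27 for Col3a1 to -0.33 for Dcn, with Pdgfra at -0.35 and Tcf21 at -0.36. Of 4 smooth muscle markers 4 fell, with 1259 to 1296 CPM against 3705 to 3844 CPM. Endothelial markers summed to 34.0 to 35.2 CPM with carfilzomib, against 43.6 to 44.0 CPM with vehicle. Of these 5 markers 2 fell, a share near that of all genes tested. The 4 tested macrophage markers summed to 42.1 to 46.8 CPM with carfilzomib, against 51.7 to 54.3 CPM with vehicle, with 3 lower and 1 higher. The higher marker was Cd14, with 24.8 and 21.2 CPM with carfilzomib, against 16.0 and 15.3 CPM with vehicle. Among the lower, Cd68 had 10.1 and 9.48 CPM with carfilzomib, against 19.7 and 21.8 CPM with vehicle. The untested macrophage markers, C1qa and C1qb, had too few reads. C1qa had 1 and 2 reads with carfilzomib, against 10 and 9 with vehicle, and C1qb had 0 and 1 with carfilzomib, against 10 and 14 with vehicle. The part of a shift in cell types in the results below was not tested, and in bulk RNA fewer cells of a type and less RNA per cell cannot be told apart.

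The comparison of carfilzomib with vehicle asks how heart cells respond to the drug. Of the 43 proteasome genes 40 rose, 0 fell and 3 did not pass the test. Psmg4 was the only 1 with a value below 0, and 0 members were lower at an unadjusted p under 0.05 with edgeR or under DESeq2 and limma-voom. Calls are edgeR quasi-likelihood tests with a Benjamini-Hochberg adjusted p under 0.05 over all tested genes, and of these 60.7% were called, 30.6% higher and 30.1% lower. DESeq2 called 39 of the 43 higher, against 23.0% of all genes tested. The median log2 fold change (carfilzomib over vehicle, as all below) was 1.22 over the 43 genes, against 0.00 over all genes tested. A rise of at least 2-fold was reached by 30 of the 43 genes, against 3.74% of all genes tested. In 41 of the 43 genes both carfilzomib libraries lay above both vehicle libraries, a pattern seen in 39.8% of tested genes. The largest 5% of log2 fold changes comprised 725 genes, and 33 of the 43 were among them.

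The 43 genes took 1.30% and 1.33% of all estimated reads in the carfilzomib libraries, against 0.546% and 0.550% in the vehicle libraries. Subunits of the core and cap alone took 1.18% and 1.20% with carfilzomib, against 0.470% and 0.477% with vehicle. Libraries of the same group lay close together for these genes. The absolute log2 difference between replicates had a median of 0.04 and a maximum of 0.25 over the 43 genes in both groups.

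**Figure D1:**
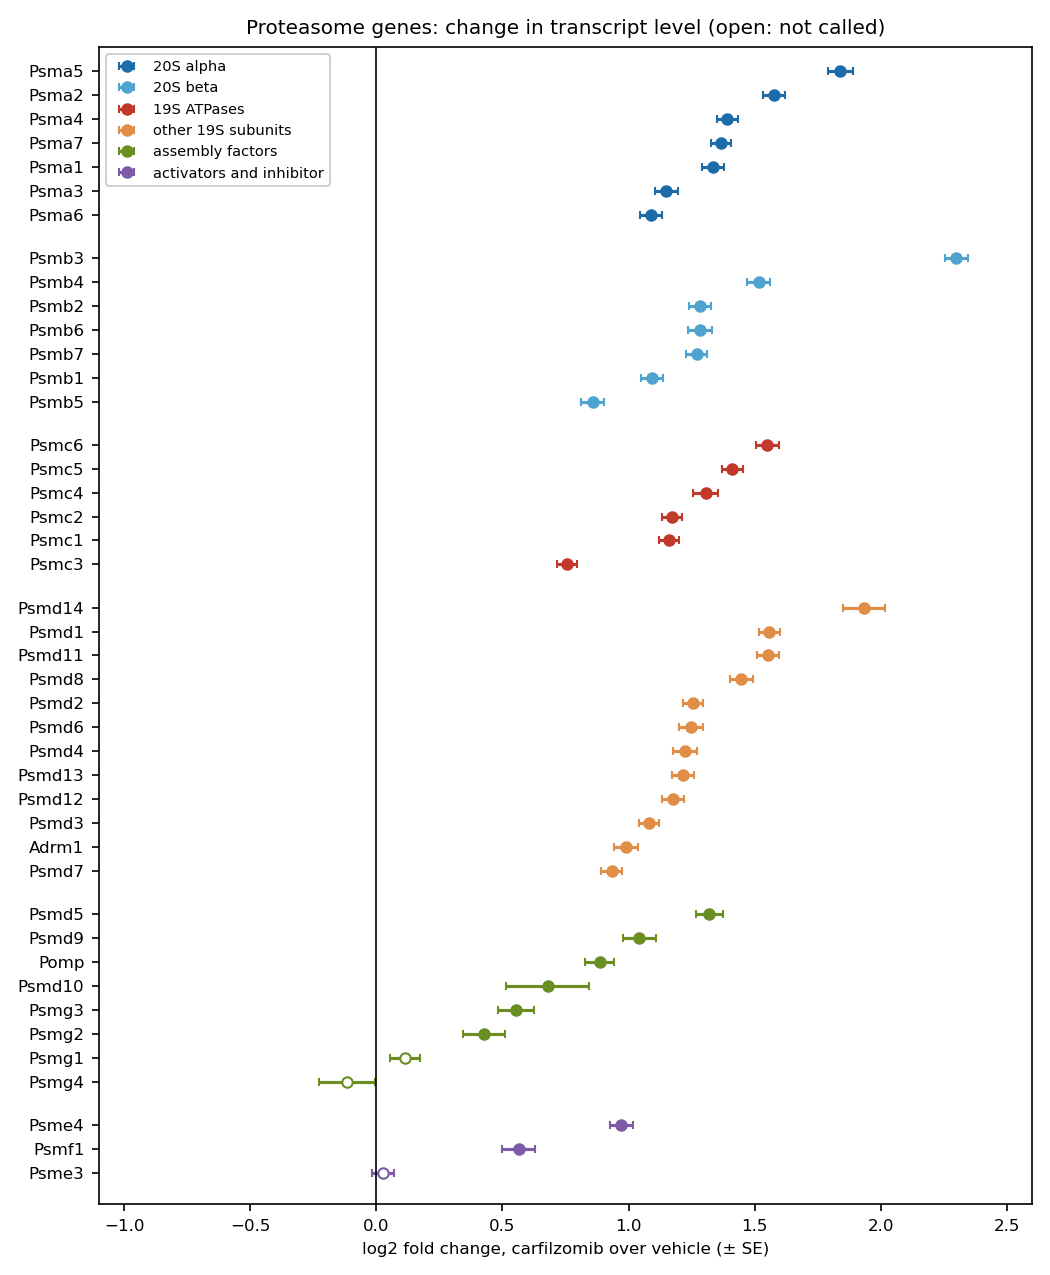
Log2 fold change of each proteasome gene, carfilzomib over vehicle, with its SE, grouped by subcomplex (2 libraries per group). Filled points passed the test and open points did not. The 32 subunits of the core and cap lie between 0.76 and 2.30, and the 3 open points are Psmg1, Psmg4 and Psme3.

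By subcomplex, the medians were 1.37 for the 20S alpha subunits, 1.28 for the 20S beta subunits, 1.24 for the 19S ATPases and 1.24 for the other 19S subunits. Those 4 medians lie within a narrow band, and the ranges of their members overlap. Assembly factors had a lower median of 0.62, and the activators and inhibitor 0.56. The difference between the subcomplexes was not tested, since genes of a complex are not replicates.

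Sequences upstream of the transcript starts are shown because NRF1 and its relative NRF2 are known to bind the antioxidant response element in proteasome promoters. RefSeq promoters of build GRCr8, 250 bases before to 50 after the start, were matched by gene ID to 39 of the 43 genes. Psma7, Psmd6, Psmd12 and Psmd14 had no entry. The core motif TGACNNNGC, searched on both strands, was found in 9 of these 39 windows, 23.1%. Of the windows of 11307 tested genes 14.5% held it. The matches that lie before the start are given here with up to 20 bases on each side, capitals marking the motif (as GCNNNGTCA where it reads on the opposite strand).
Psmd1 (chr9:94157786-94157834, + strand): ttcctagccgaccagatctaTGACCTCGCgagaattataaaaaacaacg
Psmb2 (chr5:144254970-144255018, + strand): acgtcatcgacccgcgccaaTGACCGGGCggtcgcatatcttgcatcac
Psmb6 (chr10:55737844-55737887, + strand): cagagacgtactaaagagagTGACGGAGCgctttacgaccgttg
Psma3 (chr6:95219717-95219748, + strand): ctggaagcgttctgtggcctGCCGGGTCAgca
Psmd9 (chr12:39018313-39018408, - strand): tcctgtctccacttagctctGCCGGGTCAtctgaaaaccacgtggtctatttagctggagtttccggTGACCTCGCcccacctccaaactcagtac
Adrm1 (chr3:187642827-187642875, + strand): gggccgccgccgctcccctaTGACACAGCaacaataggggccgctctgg
Psme4 (chr14:108706568-108706616, + strand): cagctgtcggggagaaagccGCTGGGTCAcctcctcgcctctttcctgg
Psmb5 (chr15:32047411-32047459, - strand): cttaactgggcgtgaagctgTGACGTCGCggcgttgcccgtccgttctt

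The remaining match was in Psmd3, from 13 to 21 bases after the start. Psmd1 had a further match after its start, and Psmd9 had a pair before its start. In Psmb2 the match shares its first base, 68 bases before the start, with the last base of a CCAAT box. Genes with the motif spanned log2 fold changes from 0.86 to 1.56 with a median of 1.08, and genes without it from -0.12 to 2.30 with a median of 1.22. The genes with the largest changes among those with an entry had no match. The CCAAT box, the site of the factor NF-Y, is a common element of such promoters and was found on either strand in 20 of the 39 windows, 51.3%, against 37.5% of all windows. The upstream 100 bases of the genes with the 3 largest log2 fold changes among those with an entry are shown next, chosen after the values were seen, with CCAAT in capitals.
Psmb3 (chr10:83193687-83193786, + strand): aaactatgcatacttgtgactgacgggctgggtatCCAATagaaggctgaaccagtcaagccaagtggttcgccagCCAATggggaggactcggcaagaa
Psma5 (chr2:198584405-198584504, + strand): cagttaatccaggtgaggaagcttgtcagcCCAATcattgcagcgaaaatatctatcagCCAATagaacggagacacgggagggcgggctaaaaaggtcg
Psma2 (chr17:55260442-55260541, - strand): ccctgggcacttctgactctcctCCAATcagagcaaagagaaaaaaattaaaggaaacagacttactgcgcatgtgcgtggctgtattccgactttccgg

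None of the windows of Psmb3, Psma5 and Psma2 held TGACNNNGC in its 300 bases. A match is a string of letters and not a shown binding site, and its absence from a window says nothing of sites elsewhere. Genes with a CCAAT box had a median log2 fold change of 1.16, and genes without one 1.26.

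**Figure D2:**
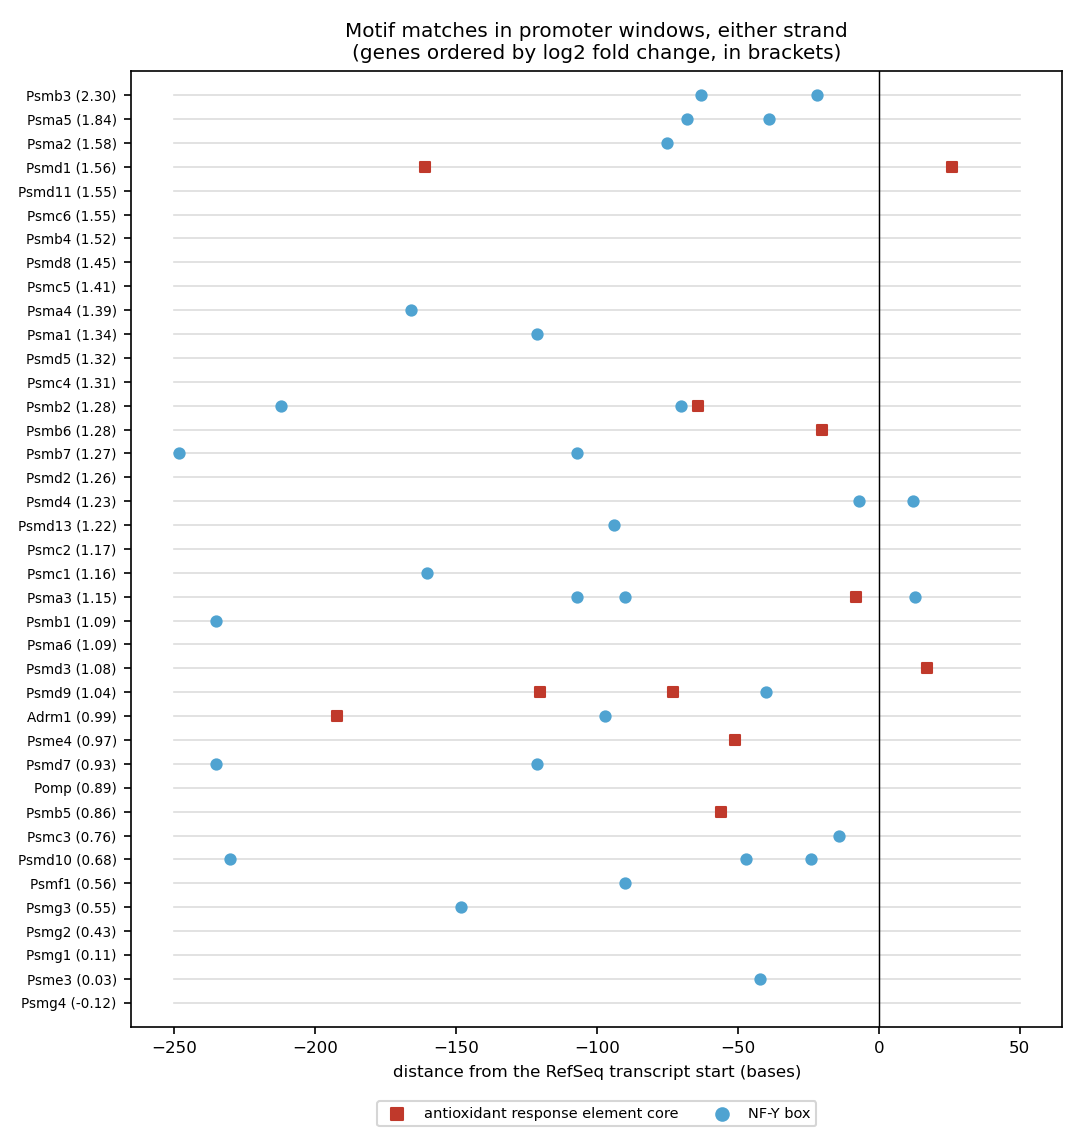
Positions of the antioxidant response element core (squares) and of the NF-Y box (circles) in the promoter windows of 39 proteasome genes, in bases from the RefSeq transcript start. Genes run from the largest log2 fold change at the top to the smallest at the bottom, and 9 rows hold a square and 20 a circle.

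In the 20S core all 14 genes rose, against 30.6% of all genes tested, and the median change of the 14 was 1.31 on the log2 scale. Its catalytic subunits are the targets of proteasome inhibitors. Psmb5 (gene ID 29425), the chymotrypsin-like subunit that carfilzomib binds, had 198 and 191 CPM with carfilzomib, against 105 and 110 CPM with vehicle. The groups did not overlap. Its rise of 0.86 ± 0.05 (SE) on the log2 scale, with an edgeR adjusted p of 5.13e-10, was the smallest among the 14 core genes. Psmb6 (gene ID 29666), the caspase-like subunit, had 272 and 288 CPM with carfilzomib, against 118 and 112 CPM with vehicle. Psmb7 (gene ID 85492), the trypsin-like subunit, had 399 and 393 CPM with carfilzomib, against 164 and 165 CPM with vehicle. Both libraries treated with the drug were higher for each gene, and the log2 fold changes were 1.28 ± 0.05 for Psmb6 and 1.27 ± 0.04 for Psmb7. Of these 3 catalytic genes Psmb5 and Psmb6 carry the TGACNNNGC motif shown above, and Psmb7 does not.

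Among the beta subunits without a cutting site, Psmb3 (gene ID 29676) had the largest change of all 43 genes. It had 484 and 484 CPM with carfilzomib, against 94.7 and 102 CPM with vehicle. That is a 4.93-fold rise, or 2.30 ± 0.05 (SE) on the log2 scale (edgeR adjusted p = 1.52e-14), and it ranked 74 from the top among all tested genes. Psmb4 rose by 1.52, Psmb2 by 1.28 and Psmb1 by 1.09 on the log2 scale. Psmb3 and Psmb5 had the largest and the smallest rise in the beta ring. Their levels were compared in FPKM (scaled to gene length and library size, as deposited). The ratio of Psmb3 to Psmb5 was 2.57 and 2.67 with carfilzomib, against 0.949 and 0.977, or nearly equal levels, with vehicle. RefSeq lists 10 further genes or pseudogenes named after Psmb3. Its counts were whole numbers in all libraries, and the part of reads from such copies was not tested.

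The alpha subunits form the outer rings that gate the chamber. Psma5 (gene ID 29672) changed most, with 244 and 260 CPM with carfilzomib, against 68.9 and 71.9 CPM with vehicle, a log2 fold change of 1.84 ± 0.05 (SE). Psma6 (gene ID 29673) changed least, with 240 and 247 CPM with carfilzomib, against 115 and 114 CPM with vehicle, a log2 fold change of 1.09 ± 0.04 (SE). The groups did not overlap for either gene, and the edgeR adjusted p was 2.82e-13 for Psma5 and 1.76e-11 for Psma6. Between them lay Psma2 with a log2 fold change of 1.58, Psma4 with 1.39, Psma7 with 1.37, Psma1 with 1.34 and Psma3 with 1.15. The counts of Psma3 and of Psmb6 carried decimals, meaning that part of their reads may have been shared with near-identical copies.

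**Figure D3:**
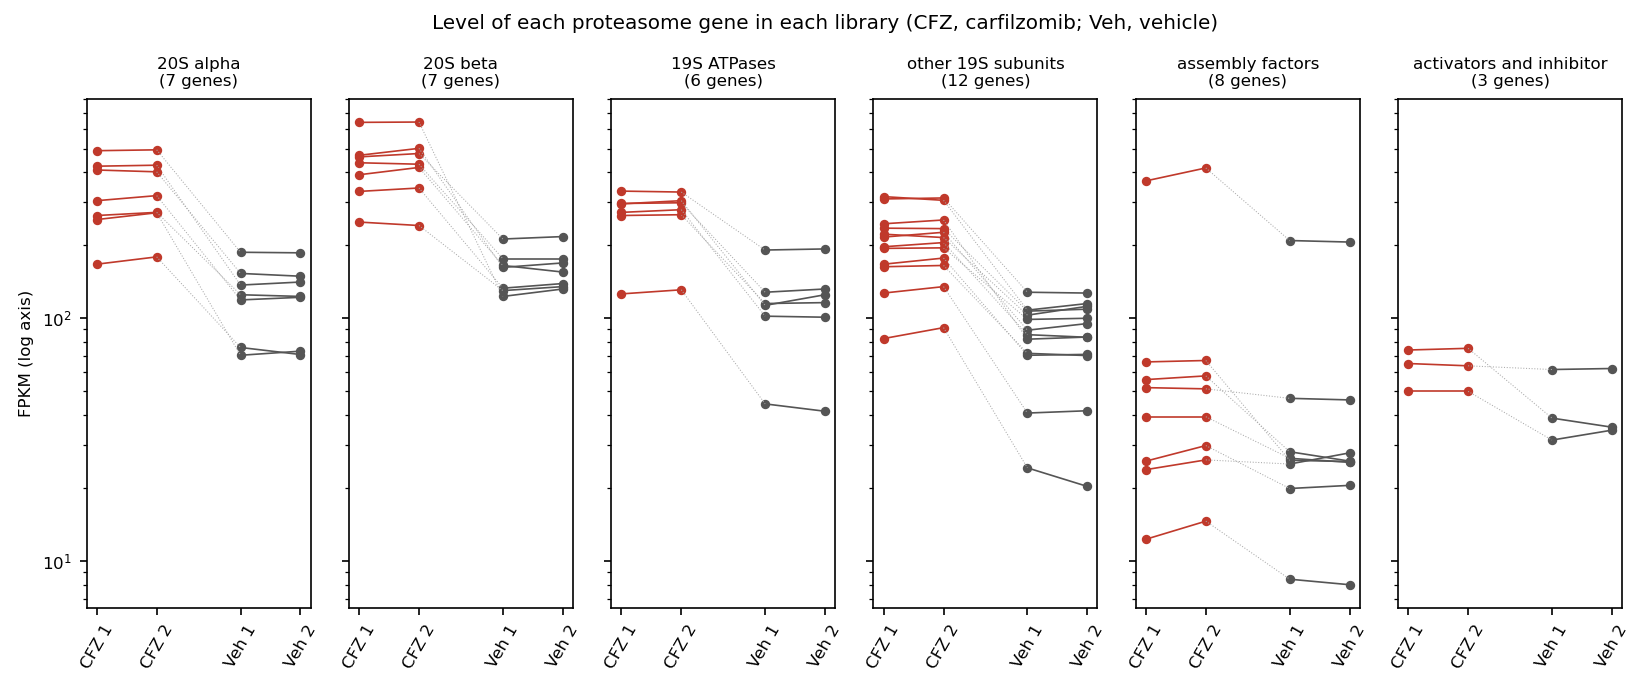
FPKM (log axis) of each proteasome gene in the 2 carfilzomib libraries (red) and the 2 vehicle libraries (grey), by subcomplex, with dotted lines joining each gene across the groups. Replicates are nearly level, and the core and cap genes are higher in both carfilzomib libraries than in both vehicle libraries.

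In the 19S cap all 18 genes rose, against 30.6% of all genes tested, and the median change of the 18 was 1.24 on the log2 scale. Among the ATPases, which form the ring that unfolds substrates, Psmc6 (gene ID 289990, Rpt4 in yeast) changed most. It had 291 and 302 CPM with carfilzomib, against 105 and 97.9 CPM with vehicle, a log2 fold change of 1.55 ± 0.05 (SE). Its counts carried decimals. Psmc3 (gene ID 29677, Rpt5 in yeast) changed least of the 32 subunits of core and cap. It had 522 and 516 CPM with carfilzomib, against 305 and 309 CPM with vehicle, a log2 fold change of 0.76 ± 0.04 (SE) with an edgeR adjusted p of 3.5e-10. Psmc5 rose by 1.41, Psmc4 by 1.31, Psmc2 by 1.17 and Psmc1 by 1.16 on the log2 scale.

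Psmd14 (gene ID 311078), the metalloprotease that cuts ubiquitin chains off substrates at the cap, changed most among the other cap subunits. It had 119 and 132 CPM with carfilzomib, against 35.8 and 30.0 CPM with vehicle, a log2 fold change of 1.93 ± 0.08 (SE) with an edgeR adjusted p of 3.83e-09. Psmd7 (gene ID 307821), the inactive partner with which the Psmd14 protein forms a dimer, changed least. It had 296 and 297 CPM with carfilzomib, against 154 and 156 CPM with vehicle, a log2 fold change of 0.93 ± 0.04 (SE). The FPKM ratio of Psmd14 to Psmd7 was 0.425 and 0.469 with carfilzomib, against 0.245 and 0.202 with vehicle. This ratio restates the largest and the smallest change among the other cap subunits, and the balance of the partners was not tested.

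The ubiquitin receptors of the cap, Psmd4 and Adrm1, rose by 1.23 and 0.99 on the log2 scale, and the large scaffold subunits Psmd1 and Psmd2 by 1.56 and 1.26. Psmd2 had the highest CPM of the 43 genes in both groups, 874 and 881 CPM with carfilzomib, against 369 and 366 CPM with vehicle. The lid subunits that surround the Psmd14 and Psmd7 pair ranged from 1.08 for Psmd3 to 1.55 for Psmd11 on the log2 scale, with Psmd8 at 1.45, Psmd6 at 1.25, Psmd13 at 1.22 and Psmd12 at 1.18. Psmd8 and Psmd12 had counts with decimals. Sem1, a small acidic lid subunit outside the 43, rose by 0.45 ± 0.07 (SE), below the 32 subunits described here. It had 82.0 and 86.0 CPM with carfilzomib, against 57.6 and 65.6 CPM with vehicle.

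Subunits of 1 complex stand in fixed proportions as proteins in the assembled complex, so their RNA levels per length were set side by side in FPKM. Among the alpha subunits the coefficient of variation over the 7 genes was 34.4% and 32.1% with carfilzomib, against 33.3% and 33.2% with vehicle, and Psma7 was highest in all 4 libraries. Among the beta subunits it was 28.9% and 28.9% with carfilzomib, against 20.05% and 18.9% with vehicle. The beta levels stood further apart in treated cells, a difference that was not tested, from 249 FPKM for Psmb5 to 641 FPKM for Psmb3 in carfilzomib replicate 1. With vehicle Psmb3 was the lowest of the 7, at 123 and 132 FPKM, and with carfilzomib it was the highest in both libraries. The spread of the beta levels without Psmb3 was not computed.

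Levels of the ATPases lay closer together with carfilzomib, a difference that was not tested. Their coefficient of variation was 27.2% and 26.4% with carfilzomib, against 40.9% and 41.6% with vehicle. Psmc6 was the lowest ATPase and Psmc3 the highest in all 4 libraries. Of the ATPases only Psmc6 had counts with decimals, and the spread without it was not computed. Psmc6 had 126 and 131 FPKM with carfilzomib, against 44.4 and 41.4 FPKM with vehicle, while Psmc3 had 334 and 331 FPKM with carfilzomib, against 191 and 193 FPKM with vehicle. For the other 12 cap subunits the coefficient was 33.0% and 30.7% with carfilzomib, against 34.9% and 36.5% with vehicle. Across the 32 core and cap genes, log2 vehicle FPKM and log2 fold change had a Pearson r of -0.39 and a Spearman rho of -0.20. This is a description across genes, which are not independent, and both measures share the vehicle libraries.

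**Figure D4:**
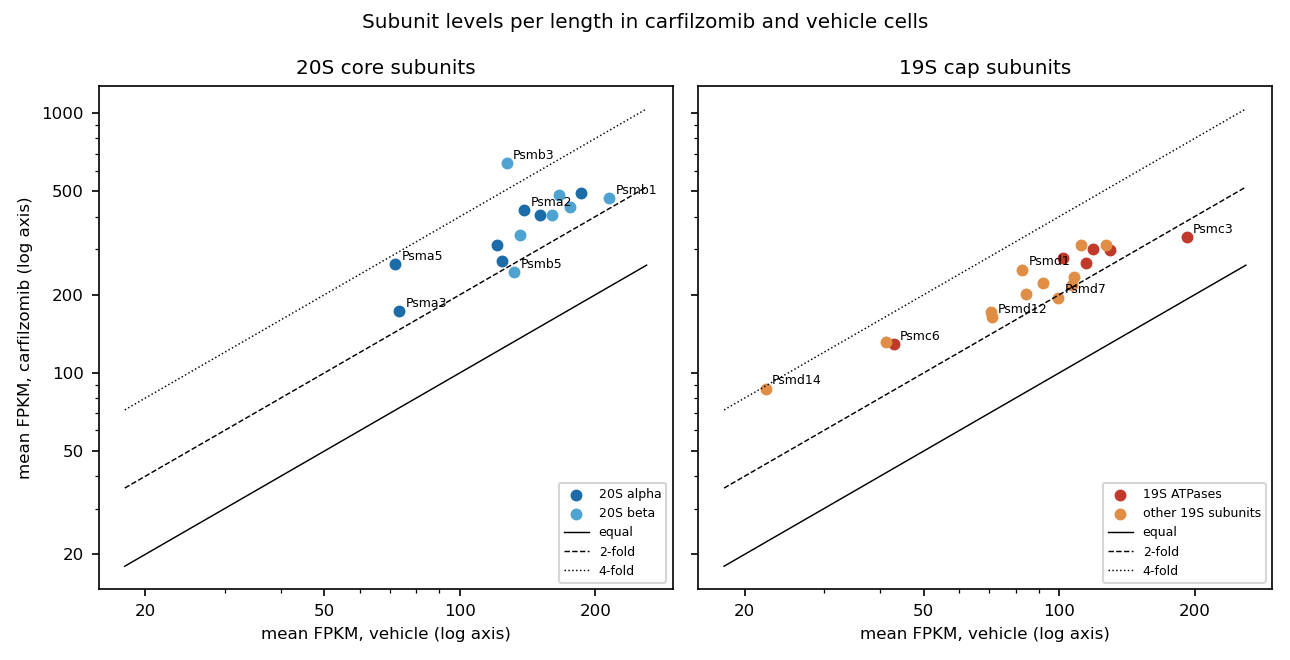
Mean FPKM with carfilzomib against mean FPKM with vehicle for the 14 core and 18 cap subunits, on log axes (2 libraries per group), with lines of equal level, 2-fold and 4-fold. Psmb3 lies above the 4-fold line, and Psmb5, Psmc3 and Psmd7 lie under the 2-fold line.

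Of the 8 assembly factors 6 rose and 2 did not pass, where 30.6% of all genes tested were called higher. The chaperones that build the ATPase ring rose, though unequally. Psmd5 had 132 and 133 CPM with carfilzomib, against 53.3 and 52.6 CPM with vehicle, a log2 fold change of 1.32 ± 0.05 (SE). Psmd9, whose counts carried decimals, had 71.7 and 74.1 CPM with carfilzomib, against 36.9 and 33.8 CPM with vehicle, a change of 1.04 ± 0.07. Psmd10, also known as gankyrin, was the lowest of the 43 genes, with 5.87 and 6.94 CPM with carfilzomib, against 4.09 and 3.90 CPM with vehicle. Its log2 fold change of 0.68 ± 0.16 (SE) had an edgeR adjusted p of 0.00220 and a DESeq2 adjusted p of 0.0530.

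Other factors build the 20S core. Pomp, which guides the closing of the beta rings, had 144 and 163 CPM with carfilzomib, against 83.5 and 82.6 CPM with vehicle, a log2 fold change of 0.89 ± 0.06 (SE). The counts of Pomp carried decimals. Psmg1 and Psmg2 encode the partners of 1 chaperone dimer of the alpha ring. Psmg1 had 51.0 and 50.3 CPM with carfilzomib, against 46.9 and 46.7 CPM with vehicle. The groups did not overlap, but the difference of 0.11 ± 0.06 (SE) on the log2 scale missed the threshold (edgeR adjusted p = 0.115). With library size alone as the scaling it was 0.15 with an edgeR adjusted p of 0.0459, and with limma on log2(FPKM + 1) 0.15 with an adjusted p of 0.0198. Psmg2 had 26.1 and 30.1 CPM with carfilzomib, against 20.6 and 21.2 CPM with vehicle, a rise of 0.43 ± 0.08.

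The other chaperone dimer of the alpha ring is made of the proteins of Psmg3 and Psmg4. Psmg3 had 30.7 and 30.8 CPM with carfilzomib, against 21.2 and 20.7 CPM with vehicle, a log2 fold change of 0.55 ± 0.07 (SE) with an edgeR adjusted p of 7.74e-06. Psmg4 had 11.5 and 13.2 CPM with carfilzomib, against 12.7 and 14.1 CPM with vehicle. Its groups overlapped, and the difference of -0.12 ± 0.11 (SE) on the log2 scale missed the threshold (edgeR adjusted p = 0.386). The FPKM ratio of Psmg3 to Psmg4 was 1.65 and 1.51 with carfilzomib, against 1.05 and 0.915 with vehicle. Psmg4 had counts with decimals and 220 estimated reads in carfilzomib replicate 1, so small changes were not detectable at this depth.

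The regulators that dock on the core split. Psme4, which encodes the large activator PA200, had 521 and 528 CPM with carfilzomib, against 279 and 257 CPM with vehicle, a log2 fold change of 0.97 ± 0.04 (SE). Psmf1, which encodes the inhibitor PI31, had 66.1 and 66.1 CPM with carfilzomib, against 42.5 and 46.9 CPM with vehicle, a change of 0.56 ± 0.07. Psme3, which encodes the nuclear activator PA28 gamma, had 166 and 162 CPM with carfilzomib, against 159 and 162 CPM with vehicle. Its groups overlapped, and the log2 fold change of 0.03 ± 0.04 (SE) had an edgeR adjusted p of 0.620. The counts of Psme3 carried decimals, and RefSeq lists 4 further genes or pseudogenes named after it. The part of reads from such copies was not tested. The FPKM ratio of Psme4 to Psme3 was 1.14 and 1.18 with carfilzomib, against 0.631 and 0.572 with vehicle.

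Inducible counterparts of the core and cap genes did not rise. Of 5 genes of the immunoproteasome and PA28 alpha and beta, which interferon is known to raise, 4 fell, 0 rose and 1 did not pass. Of all genes tested 30.1% were called lower. The catalytic Psmb8 had 7.65 and 8.11 CPM with carfilzomib, against 10.9 and 9.64 CPM with vehicle, Psmb9 4.87 and 5.30 CPM against 6.30 and 8.17 CPM, and Psmb10 13.5 and 14.1 CPM against 16.6 and 17.5 CPM. Their log2 fold changes were -0.38, -0.51 and -0.31, with edgeR adjusted p between 0.0106 and 0.0149. These calls were weak: the DESeq2 adjusted p were 0.168, 0.133 and 0.141, and leaving out vehicle replicate 1 gave Psmb8 an edgeR adjusted p of 0.104, leaving out carfilzomib replicate 1 one of 0.0906. Leaving out vehicle replicate 2 gave 0.188 for Psmb9 and 0.0620 for Psmb10, and leaving out carfilzomib replicate 1 gave 0.0805 for Psmb9 and 0.0770 for Psmb10, as edgeR adjusted p. Macrophage markers, which mark cells known for high immunoproteasome levels, summed to less in the same libraries, though Cd14 among them rose (values above). The part of macrophages was not tested.

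Psme1 had 100 and 102 CPM with carfilzomib, against 146 and 152 CPM with vehicle, a log2 fold change of -0.56 ± 0.05 (SE) with an edgeR adjusted p of 8.51e-08. Psme2, whose protein forms the PA28 ring with that of Psme1, had 82.8 and 84.6 CPM with carfilzomib, against 77.3 and 80.8 CPM with vehicle, and missed the threshold (edgeR adjusted p = 0.217). The counts of Psme2 carried decimals. Per length, the constitutive Psmb5 stood 33.4 and 30.5 times above Psmb8 with carfilzomib, against 12.5 and 14.7 times with vehicle. Psmb7 stood 30.5 and 28.6 times above Psmb10 with carfilzomib, against 10.1 and 9.67 times with vehicle.

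Of 11 enzymes and shuttles that bind the proteasome 10 were tested. Among these 7 rose, 1 fell and 2 missed the threshold, and the median was 0.36 on the log2 scale. Of all genes tested 30.6% were called higher and 30.1% lower. Usp14, a deubiquitinase docked on the cap, had 302 and 311 CPM with carfilzomib, against 119 and 115 CPM with vehicle, a rise of 1.39 ± 0.04 (SE). Uchl5, the deubiquitinase held by the Adrm1 protein, had 15.5 and 15.5 CPM with carfilzomib, against 14.9 and 14.3 CPM with vehicle, and missed the threshold (edgeR adjusted p = 0.468). Ubqln4, a ubiquitin shuttle, fell by 0.43 on the log2 scale, with 88.2 and 90.8 CPM with carfilzomib, against 118 and 124 CPM with vehicle. Of 8 other proteasome genes 6 were tested and 4 rose, Txnl1, a thioredoxin-like protein of the cap, most with 0.99. The testis subunit Psma8 and the thymus subunit Psmb11 were near the detection limit, at no more than 1.45 CPM in any library, and did not pass.

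Of 12 genes listed around NRF1 and its relative NRF2, 10 rose and 2 missed the threshold, and the median was 0.32 on the log2 scale. The list held Nfe2l1, Nfe2l2, Ddi2, Ngly1, Vcp, Maff, Mafg, Mafk, Bach1, Keap1, Syvn1 and Sel1l. Ddi2 was also counted among the enzymes and shuttles above. Of all genes tested 30.6% were called higher. Nfe2l1, which encodes NRF1, had 387 and 380 CPM with carfilzomib, against 328 and 322 CPM with vehicle, a rise of 0.24 ± 0.04 (SE). Nfe2l2, which encodes NRF2, had 202 and 202 CPM with carfilzomib, against 172 and 169 CPM with vehicle, a rise of 0.24 ± 0.04. Both transcription factor genes thus had smaller log2 fold changes than the 32 core and cap subunits. Vcp, the segregase that draws NRF1 out of the endoplasmic reticulum, had 1684 and 1718 CPM with carfilzomib, against 724 and 720 CPM with vehicle, a log2 fold change of 1.24 ± 0.04. Ddi2, the protease that cuts NRF1 into its active form, had 76.4 and 75.9 CPM with carfilzomib, against 77.3 and 73.8 CPM with vehicle. It missed the threshold (edgeR adjusted p = 0.873), and its counts carried decimals.

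**Figure D5:**
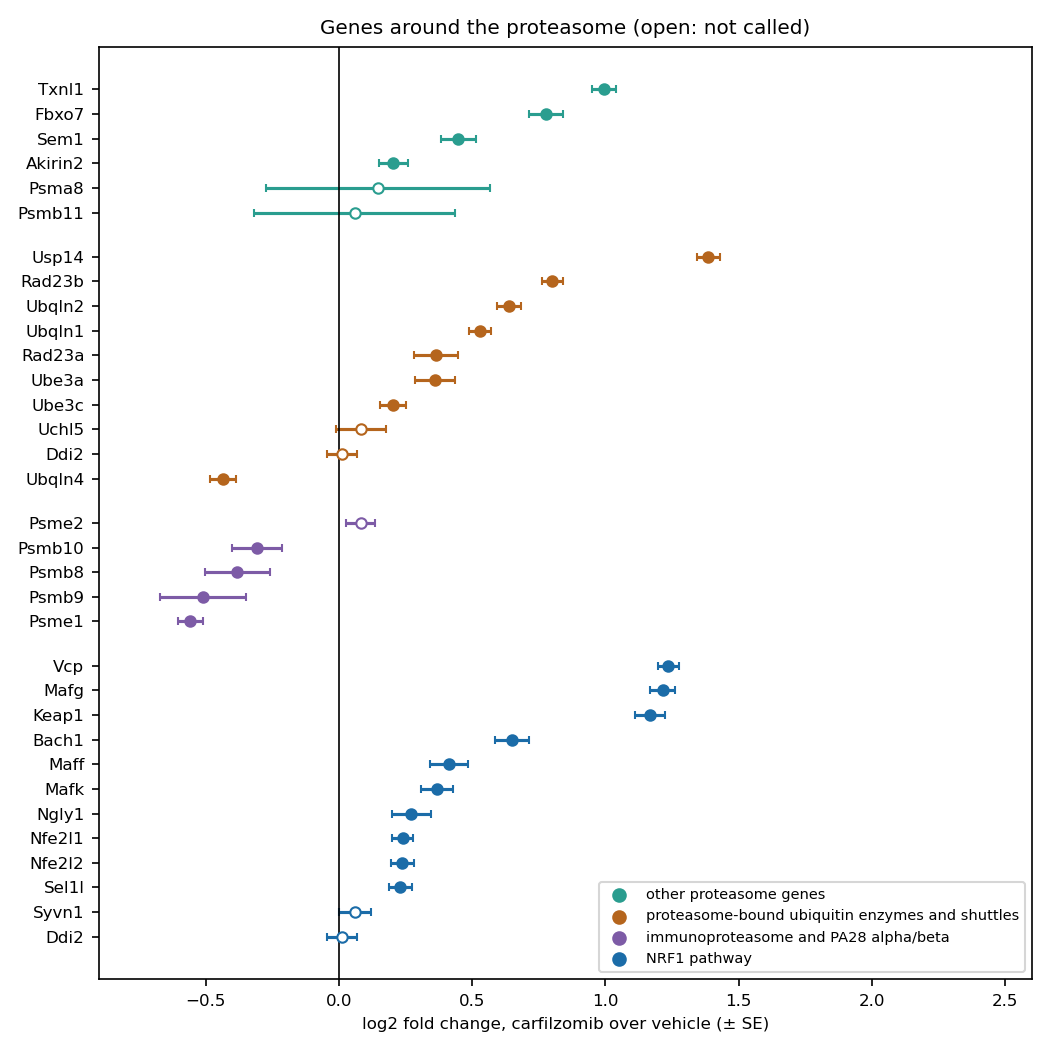
Log2 fold change, carfilzomib over vehicle, with its SE, for 4 lists of genes around the proteasome (2 libraries per group). Open points did not pass the test. Vcp, Mafg, Keap1 and Usp14 lie above 1, and the genes below 0 are Ubqln4 and 4 genes of the immunoproteasome list.

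The authors' deposited table of their own comparison lists 6063 genes with a q-value up to 0.0499, and 39 of the 43 proteasome genes are in it, all 39 higher with carfilzomib. Higher genes in that table make up 17.0% of the 18699 genes. Log2 fold changes in the authors' deposited table ran from 0.43 to 2.31 for these genes and differed from the values given here by at most 0.01.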

How the data were processed

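RNA of 4 libraries was analysed, 2 with carfilzomib and 2 with vehicle, grouped by sample title. Columns named as control were taken as vehicle, the only control in the labels. The authors deposited estimated counts per gene, per the file headers, with decimals in 28.5% to 28.9% of genes per library (over 1e-06 from a whole number). How the decimals arose is not stated. The authors also deposited FPKM per gene, used here to compare genes per length. Their comparison table gives log2 fold changes with p-values and q-values, from DESeq2 per the file headers. The submitters' processing notes name build Rnor_6.0, R 3.3.2, DESeq2, featureCounts 1.6.0, Bowtie2, HISAT, cutadapt 2.0 and FastQC 0.11.8, without roles. A further 10 deposited columns were left aside.

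Counts were rounded. Genes passing filterByExpr (minimum count 10, total 15) were fitted with TMM factors (0.987 to 1.01) and edgeR 4.0.16 in R 4.3.3, with limma 3.58.1 and DESeq2 1.42.0 among the alternatives. The SE is the absolute log2 fold change over the square root of F. In simulated counts for this comparison over 17258 genes, 48 of 50 genes changed 2-fold were recovered. The simulation changed 50 genes per fold size, up and down, far fewer than the 60.7% of genes called in the data. It therefore does not show how the fit performs when most genes change. Replicates differed by more than sampling noise (chi-square per degree of freedom 3.08 for carfilzomib and 3.42 for vehicle). Same-numbered libraries did not deviate together (correlation -0.02), so numbers were not used as pairs. Values in every library are given for Psmb5, Psmb6, Psmb7, the largest and smallest called change in each subcomplex, all assembly factors and regulators, and members not called. From each other list the rule takes the largest rise and fall above 10 CPM, all immunoproteasome genes, Nfe2l1 and Nfe2l2. Psmd2, Sem1, Uchl5, Ddi2 and gene ratios were added after their values were seen. Members and lists were chosen with earlier results of these data known. Paaf1 and Ecpas were not matched to a row.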

Additional observations from a re-analysis of the deposited data

How the results depend on the processing

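All 40 rises held under limma-voom, RLE factors, either low-count filter, counts rounded down, the replicate block and each left-out library, and 39 under DESeq2, where Psmd10 missed the threshold. With library size alone or limma on log2 FPKM the count was 41, through Psmg1. In the edgeR fit used for the results above, 33 of the 34 genes without decimals rose. Of all genes tested, 23.0% to 33.0% were called higher over these settings. Of 602 alternative values for single members 598 kept direction and side of the threshold and 0 changed sign. The replicate block gave 4146 genes higher and 4083 lower, against 4444 and 4368 without it; same-numbered libraries did not deviate together.

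Some medians moved by more than the spread between replicates. Without decimals the 19S ATPases were at 1.17, the assembly factors at 0.55 and the regulators at 0.77, and with library size alone the assembly factors were at 0.65 and the regulators at 0.60. Limma gave the regulators 0.58 with a pseudocount of 1 and 0.60 with 0.1. With 1 library left out the medians ranged from 1.20 to 1.28 for the ATPases, from 0.56 to 0.68 for the assembly factors and from 0.50 to 0.64 for the regulators. The cause was not tested. As the ratio of highest to lowest member, the spread with carfilzomib was 2.85 for alpha, 2.62 for beta, 2.59 for ATPase and 3.63 for other cap genes, against 2.64, 1.69, 4.49 and 5.77 with vehicle. The motif lay before the start in 20.5% of proteasome promoters, against 12.3% of all promoters. Followed by A, it was found in the whole window in 5 of 39 proteasome promoters, 12.8%, against 2.79% of all. Before the start this longer motif was found in 3 of the 39, 7.69%, against 2.28% of all. Depth limits Psmd10 and Psmg4, the members with the fewest reads.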
